A study of Rattus norvegicus with 40 samples.

Results

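The circadian clock genes followed here are 10 genes, Per1, Per2, Per3, Cry1, Cry2, Clock, Dbp, Tef, Nr1d1 and Nr1d2, read by every Affymetrix probe set whose annotated symbol was one of them. They are 10 of 14217 genes named on the array, with 20 of its 31042 probe sets. Of these 20, 13 passed the filter on dim signal and were tested, and they read 8 genes; Per1 and Per3 had no tested probe set. Cultured neonatal rat ventricular myocytes (NRVMs), primary heart muscle cells isolated from newborn rats, were exposed to ischemia+reperfusion or to ischemia alone for labelled times of 0, 10, 30, 60 and 120 min. Ischemia was made by coverslip hypoxia, in which a coverslip over the cell layer limits the supply of oxygen and medium. Every one of these 10 groups had 4 arrays: 2 preparations of cells, each in duplicate. The labels leave out how long reperfusion lasted, what the minutes cover in that arm, whether duplicates were separate cultures, or at what hour cells were harvested, so p-values measure the spread between these samples, which may be technical.

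The circadian clock is a loop of transcription that many cells run on their own, heart muscle cells among them. CLOCK and its partner BMAL1 bind E-box sequences and switch on the Period (Per) and Cryptochrome (Cry) genes, whose proteins return to the nucleus and repress CLOCK and BMAL1. The same pair switches on Nr1d1 and Nr1d2, which encode the REV-ERB receptors that repress Bmal1, and Dbp and Tef, whose proteins bind D-box sequences in output genes.

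The letters of these elements are shown for Per2 and Cry2, which rose in the ischemia+reperfusion arm, and for Tef, of which a probe set fell in the ischemia arm. RefSeq promoter windows (build GRCr8) matched 9 of the 10 genes, in 11 windows, and Cry1 was not among them. Each sequence is the 250 bases before the start, 5′ to 3′ on the gene's strand, with matched motifs in capitals. Both strands were searched for 5 elements. The E-box of CLOCK and BMAL1 was spelled CACGTG. Its variant was spelled CACGTT. The D-box was either TTATGTAA or TTACGTAA. The nuclear receptor element of the REV-ERB proteins was AGGTCA, and the cAMP response element was TGACGTCA.
Per2, chr9:99496994-99497243, minus strand: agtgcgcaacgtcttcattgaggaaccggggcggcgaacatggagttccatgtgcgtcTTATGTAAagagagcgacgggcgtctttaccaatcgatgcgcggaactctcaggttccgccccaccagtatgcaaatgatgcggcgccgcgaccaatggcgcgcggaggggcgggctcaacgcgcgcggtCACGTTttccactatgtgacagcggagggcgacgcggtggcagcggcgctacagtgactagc
Cry2, chr3:98860438-98860687, minus strand: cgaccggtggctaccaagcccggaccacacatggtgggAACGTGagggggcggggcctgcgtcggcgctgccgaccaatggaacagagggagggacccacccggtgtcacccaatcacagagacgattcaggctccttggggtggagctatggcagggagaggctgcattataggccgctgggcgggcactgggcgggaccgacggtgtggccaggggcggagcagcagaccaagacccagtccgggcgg
Tef, chr7:115206577-115206826, plus strand: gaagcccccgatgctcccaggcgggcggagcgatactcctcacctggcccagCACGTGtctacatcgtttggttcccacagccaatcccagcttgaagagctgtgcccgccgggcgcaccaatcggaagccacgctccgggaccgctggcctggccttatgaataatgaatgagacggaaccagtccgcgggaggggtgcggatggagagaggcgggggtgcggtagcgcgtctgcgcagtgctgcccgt
The Per2 window held a CACGTT from 62 to 57 bases before the start and a D-box from 192 to 185 bases before it. Cry2 held the E-box variant, read on the other strand, at 212 to 207 bases, and Tef the E-box at 198 to 193 bases. Among 33469 promoter windows of this length, 5.59% held CACGTG, 4.07% CACGTT, 0.932% a D-box, 14.1% AGGTCA and 1.59% TGACGTCA. Of the 11 windows of the clock genes, 6 held at least 1 of these motifs. Among them were windows of Nr1d1 and Nr1d2, genes called in no comparison. Nr1d1 held AACGTG at start 1 and CACGTG at start 2, and Nr1d2 held AGGTCA. All these matches are descriptions of letters, not of binding. The share of all windows with at least 1 of the 5 motifs was not counted, so the count of 6 has no background. Clock, of which a probe set fell in both arms, had 0 motifs in each of its windows.

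All levels are log2(intensity + 16) after quantile normalization between arrays, with negative intensities set to 0, so a level of 4 is the floor. A change is a difference of such levels, in log2 units, with its standard error (SE) from limma over n = 2 preparations a group, and it understates the change of dim probe sets. A call is an adjusted p under 0.05 over the 18625 tested probe sets. Array values are given in the order preparation 1 duplicates 1 and 2, preparation 2 duplicates 1 and 2. Where arrays of 2 groups are said not to overlap, only those arrays are described. The share of all tested probe sets without overlap was not counted. Since RNA of whole cultures was measured, fewer cells that express a gene and less RNA per cell cannot be told apart. The 4 times of an arm share its 0 min arrays, so their changes are not independent of each other.

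Heart muscle markers were bright, with 9 of 10 on the array, 0 of the 9 at the floor on any array and a summed intensity of 82056 to 93806 over the 40 arrays. Fibroblast, endothelial, macrophage and smooth muscle markers were detected too. Median intensities as deposited ran from 101 to 171. Of the 40 arrays, 5 stood apart by the correlation of their profiles: 1 had a median correlation of 0.872 with all others, and 4 correlated more closely, by over 0.1, with another group than with their own (16 arrays did so by any margin). They were the 10, 30 and 120 min arrays of ischemia+reperfusion from preparation 2, duplicate 1, the 120 min ischemia array of preparation 2, duplicate 2, and the 0 min ischemia array of preparation 1, duplicate 1. Hspa1a, an inducible heat shock gene, had a level of 9.75 on the ischemia+reperfusion array set apart at 120 min, while the 3 others of that group had 13 to 13.25. On the ischemia array set apart at 120 min it had 13.15, while the 3 others had 9.62 to 10.19. All were kept under their labels, and values without them are given beside several of the results they moved.

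The repressor genes Per2, Cry1 and Cry2 rose at 120 min of ischemia+reperfusion, and a probe set of Clock fell. These were 4 of 13 tested clock probe sets (30.8%), against 7.17% of all tested probe sets in that comparison (3.5% higher and 3.68% lower). The median change of the 13 was 0.00 (-0.97 to 1.11), and that of all tested probe sets was -0.02. With arrays centred on their medians 4 were again called, but 2 were higher and 2 lower, as Cry1 was lost and the Tef probe set 1390819_at (-0.46, adjusted p = 0.043) gained. On the deposited scale only Per2 (higher) and the Clock probe set (lower) were called.

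**Figure D1:**
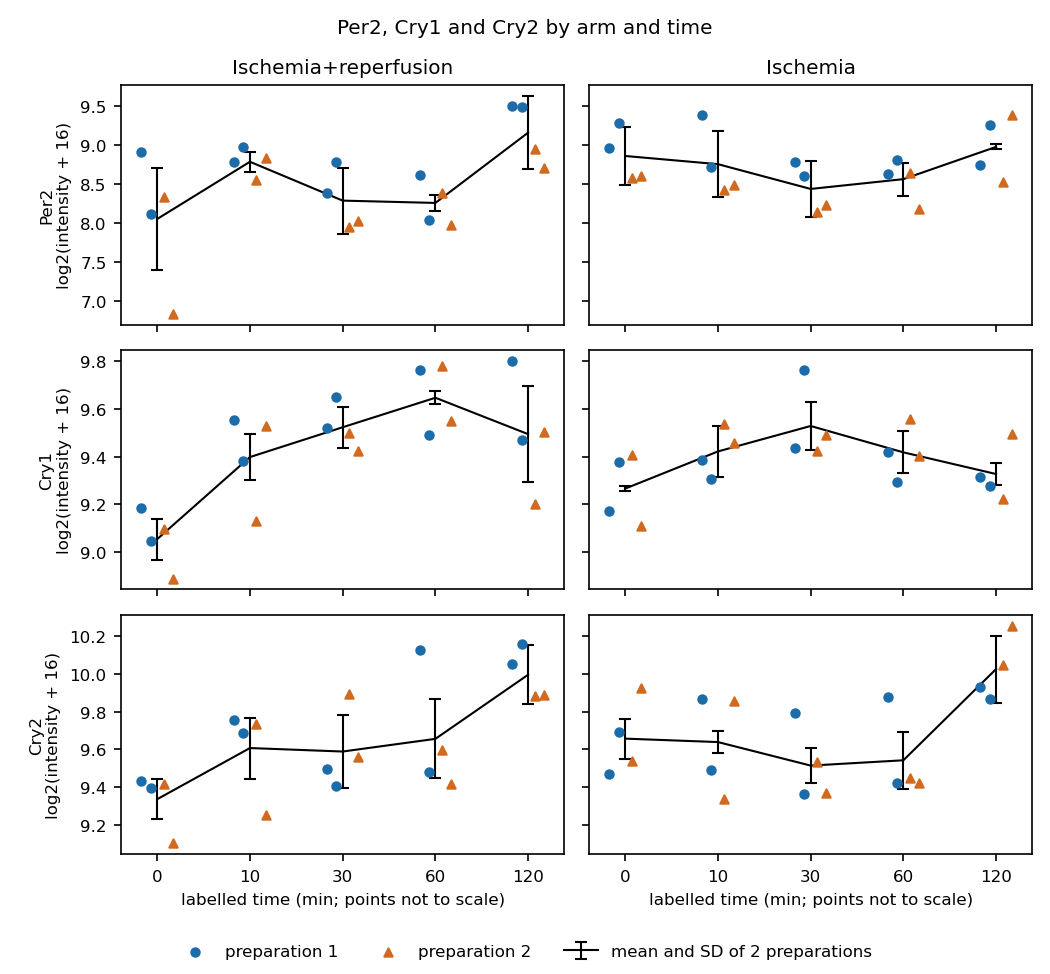
Levels of Per2, Cry1 and Cry2, as log2(intensity + 16), against the labelled time for ischemia+reperfusion (left) and ischemia (right); points are arrays coloured by preparation, and lines and bars are the mean and SD of 2 preparations. At 120 min of ischemia+reperfusion the means were 9.16 for Per2, 9.49 for Cry1 and 9.995 for Cry2, above the 0 min means of 8.05, 9.05 and 9.33.

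Per2, the Period gene that carries most of the clock's repression together with Per1 in the mouse, was read by probe set 1368303_at. After 120 min of ischemia+reperfusion its levels were 9.50, 9.49, 8.95 and 8.71, against 8.91, 8.12, 8.34 and 6.83 at 0 min of that arm. The 0 min arrays were spread over 2 units, the highest of them lay above the lowest 120 min array, and so the groups overlapped. Per2 rose by 1.11 ± 0.18 (95% interval 0.72 to 1.51; adjusted p = 0.01), by 0.98 in preparation 1 and 1.24 in preparation 2. The fit without the preparation as a block kept the size but not the call (adjusted p = 0.087). Without the 5 arrays set apart the rise was 1.05 (adjusted p = 0.0076). Leaving out each of these 8 arrays in turn kept the call, with rises of 0.73 to 1.49 (adjusted p of 0.0026 to 0.042). The smallest, 0.73, came without the 0 min array at 6.83, and the largest without that at 8.34.

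Between these times Per2 did not climb steadily. Its group means were 8.05 ± 0.66, 8.79 ± 0.13, 8.29 ± 0.43, 8.26 ± 0.11 and 9.16 ± 0.47 at 0, 10, 30, 60 and 120 min of ischemia+reperfusion (SD, n = 2 preparations). The change at 10 min was 0.74 ± 0.18 (adjusted p = 0.13), and those at 30 and 60 min were 0.24 and 0.21. A moderated F test over the 4 times passed for Per2 (adjusted p = 0.027).

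In the ischemia arm Per2 was not called at any time. Its means there were 8.86 ± 0.37, 8.76 ± 0.42, 8.44 ± 0.36, 8.56 ± 0.21 and 8.98 ± 0.03 at 0, 10, 30, 60 and 120 min, and the change at 120 min was 0.12 ± 0.18 (95% interval -0.28 to 0.51). At 0 min the levels were 8.91, 8.12, 8.34 and 6.83 in the ischemia+reperfusion arm and 8.96, 9.29, 8.58 and 8.61 in the ischemia arm. That difference was -0.81 ± 0.18, of the same sign in both preparations, with an adjusted p of 0.077; when duplicate 1 of preparation 1 in ischemia+reperfusion at 0 min was left out, it passed. At 120 min the difference between the arms was 0.18 ± 0.18 (95% interval -0.21 to 0.58; adjusted p = 0.92). The interaction of arm and time at 120 min, the change in ischemia+reperfusion minus that in ischemia, was 0.99 ± 0.25, with an unadjusted p of 0.00227 and an adjusted p of 0.27. Without the 2 arrays set apart at 120 min it was 1.15 (adjusted p = 0.054). Over the 10 groups Per2 was highest at 120 min of ischemia+reperfusion and lowest at 0 min of that arm, and 0 of the 9 steps between neighbours in this order exceeded the larger of their SDs.

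Cry1, a cryptochrome that binds and silences CLOCK and BMAL1, rose at 60 and 120 min of ischemia+reperfusion. At 60 min its levels were 9.76, 9.49, 9.78 and 9.55, against 9.19, 9.04, 9.10 and 8.89 at 0 min, and the groups did not overlap. The rise was 0.59 ± 0.10 (95% interval 0.38 to 0.81; adjusted p = 0.012), and Cry1 was the 1 clock probe set of 13 called at 60 min, where 4.69% of all were (2.19% higher and 2.5% lower). At 120 min levels were 9.80, 9.47, 9.20 and 9.50, all above the 0 min arrays, with a rise of 0.44 ± 0.10 (adjusted p = 0.027). The lowest of these 4 arrays was the one set apart, and without the 5 arrays set apart the rise was 0.51 (adjusted p = 0.0075). When duplicate 2 of preparation 2 at 120 min was left out, it was 0.36 (adjusted p = 0.083). Scaling moved these calls: on the deposited scale the rises were 0.57 at 60 min (adjusted p = 0.1) and 0.32 at 120 min (adjusted p = 0.25), and with arrays centred on their medians the 120 min rise was 0.36 (adjusted p = 0.064).

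The Cry1 means of the ischemia+reperfusion arm were 9.05 ± 0.09, 9.40 ± 0.10, 9.52 ± 0.09, 9.65 ± 0.03 and 9.49 ± 0.20 from 0 to 120 min, and the F test over its times passed (adjusted p = 0.039). The change at 30 min was 0.47 ± 0.10 (adjusted p = 0.059), the same in both preparations. In the ischemia arm the means were 9.27 ± 0.01, 9.42 ± 0.11, 9.53 ± 0.10, 9.42 ± 0.09 and 9.33 ± 0.05, with changes of 0.06 to 0.26 and no call. Between the arms the difference at 0 min was -0.21 ± 0.10 (adjusted p = 0.29), of the same sign in both preparations. It was 0.23 ± 0.10 at 60 min (adjusted p = 0.18) and 0.17 ± 0.10 at 120 min (adjusted p = 0.79). The interaction at 120 min was 0.38 ± 0.14 (adjusted p = 0.41, and 0.079 without the 2 arrays set apart at 120 min). Of its 10 group means, that at 0 min of ischemia+reperfusion was lowest. In their order, the step from the highest (60 min of ischemia+reperfusion) to the next exceeded the larger SD. So did the steps on either side of 0 min of ischemia, and the other 6 did not.

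Cry2, the second cryptochrome, had levels of 10.05, 10.16, 9.88 and 9.89 at 120 min of ischemia+reperfusion, against 9.43, 9.39, 9.42 and 9.10 at 0 min (probe set 1372548_at). Every 120 min array lay above every 0 min array, and the rise was 0.66 ± 0.14 (95% interval 0.35 to 0.97; adjusted p = 0.023), 0.69 in preparation 1 and 0.63 in preparation 2. On the deposited scale it was 0.53 (adjusted p = 0.11). In the ischemia arm the 120 min levels were 9.93, 9.87, 10.05 and 10.26, against 9.47, 9.69, 9.54 and 9.93 at 0 min, which overlapped at 1 array. That change was 0.37 ± 0.14 (95% interval 0.06 to 0.68; adjusted p = 0.1), and without the overlapping 0 min array it was 0.47 and passed (adjusted p = 0.045). Between the arms at 120 min the difference was -0.03 ± 0.14 (95% interval -0.34 to 0.28). At 0 min the difference was -0.32 ± 0.14 (adjusted p = 0.26), and the interaction at 120 min was 0.29 ± 0.20 (adjusted p = 0.61).

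From 10 to 60 min the changes of Cry2 were 0.25 to 0.32 in the ischemia+reperfusion arm and -0.14 to -0.02 in the ischemia arm, with no call. The 2 groups at 120 min stood above the other 8, and the step below them, 0.34 units, exceeded the larger SD of 0.16. The lowest group was 0 min of ischemia+reperfusion, and the step down to it, 0.18 units, exceeded the larger SD of 0.11.

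The other Period probe sets were dim. Per1, a Period gene that many outside stimuli induce quickly, had a single probe set (1374855_at) that was at or below 0 on 37 of 40 arrays. The 3 arrays above the floor were all of ischemia, 2 at 120 min (5.83 and 4.84) and 1 at 60 min (4.68), and the probe set was not tested. A second Per2 probe set (1378560_at) was at the floor on all 40 arrays, and a second Per3 probe set (1378745_at) on 39. Per3, a Period gene with a minor part in the loop, had its brighter probe set (1388239_at) at a mean level of 6.01, below the filter at 6.48. Its group means ran from 5.26 to 6.30, with array levels of 4 to 6.76. A second Cry2 probe set (1369446_at) was at the floor on 37 arrays.

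Clock, the activator that pairs with BMAL1, was read by 4 probe sets, of which 1 was called. Probe set 1380098_at fell in both arms at 120 min. With reperfusion its 120 min levels were 6.96, 7.02, 6.17 and 6.96, against 7.72, 7.70, 7.81 and 7.74 at 0 min. No array overlapped, and the fall was -0.97 ± 0.15 (95% interval -1.29 to -0.64; adjusted p = 0.0086). The lowest value, 6.17, belonged to the array set apart, and without the 5 arrays the change was -0.77 (adjusted p = 0.0023).

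Without reperfusion its levels at 120 min were 6.76, 6.95, 6.76 and 7.66, against 7.83, 7.99, 7.53 and 7.72 at 0 min. The 7.66 again belonged to the array set apart and was the only one to overlap. The fall was -0.74 ± 0.15 (adjusted p = 0.013), -1.06 in preparation 1 and -0.42 in preparation 2. Without the 5 arrays it was -1.0 (adjusted p = 0.00042), and when duplicate 1 of preparation 2 at 120 min was left out it was -0.51 (adjusted p = 0.16). The difference between the arms at 120 min was -0.25 ± 0.15 (95% interval -0.58 to 0.08; adjusted p = 0.79). Its sign turned without the 2 arrays set apart at 120 min, to 0.17 (adjusted p = 0.32).

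At the shorter times no change of this probe set was called. The means were 7.74 ± 0.04, 8.08 ± 0.03, 7.79 ± 0.16, 7.50 ± 0.19 and 6.78 ± 0.30 over the times of ischemia+reperfusion, and 7.77 ± 0.20, 7.29 ± 0.12, 7.47 ± 0.22, 7.48 ± 0.08 and 7.03 ± 0.25 over those of ischemia (SD, n = 2 preparations). The change at 10 min was 0.33 ± 0.15 in the ischemia+reperfusion arm (adjusted p = 0.43) and -0.48 ± 0.15 in the ischemia arm (adjusted p = 0.11). At 10 min the levels were 8.22, 7.98, 8.01 and 8.11 with reperfusion and 7.45, 7.30, 7.22 and 7.18 without it. The difference was 0.79 ± 0.15, with an unadjusted p of 0.000222 and an adjusted p of 0.19, and 0% of all tested probe sets were called. The interaction at 10 min was 0.82 ± 0.21 (adjusted p = 0.18). Without the 5 arrays set apart, the difference between the arms at 10 min was 0.82 and passed (adjusted p = 0.024). The F test over times passed for ischemia+reperfusion (adjusted p = 0.012) and not for ischemia (adjusted p = 0.068), and the F test of the interaction had an adjusted p of 0.22.

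The other 2 tested Clock probe sets had smaller changes of the same sign at 120 min. For 1390199_at, the brightest, they were -0.14 ± 0.07 in ischemia+reperfusion and -0.16 ± 0.07 in ischemia, and for 1389456_at they were -0.30 ± 0.12 and -0.14 ± 0.12, with adjusted p of 0.14 to 0.44 over these 4 values. Without the 5 arrays set apart both passed as lower at 120 min of ischemia. At 10 min, 1390199_at had levels of 10.16, 10.17, 10.18 and 10.12 with reperfusion and 9.87, 9.96, 9.76 and 9.81 without it. That difference was 0.31 ± 0.07, with an adjusted p of 0.26. The fourth probe set, 1369168_a_at, had a mean level of 5.64 and was not tested; its group means were lowest at 120 min, 5.04 in ischemia+reperfusion and 4.66 in ischemia. The annotation used here does not say which part of the Clock transcript each probe set reads.

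**Figure D2:**
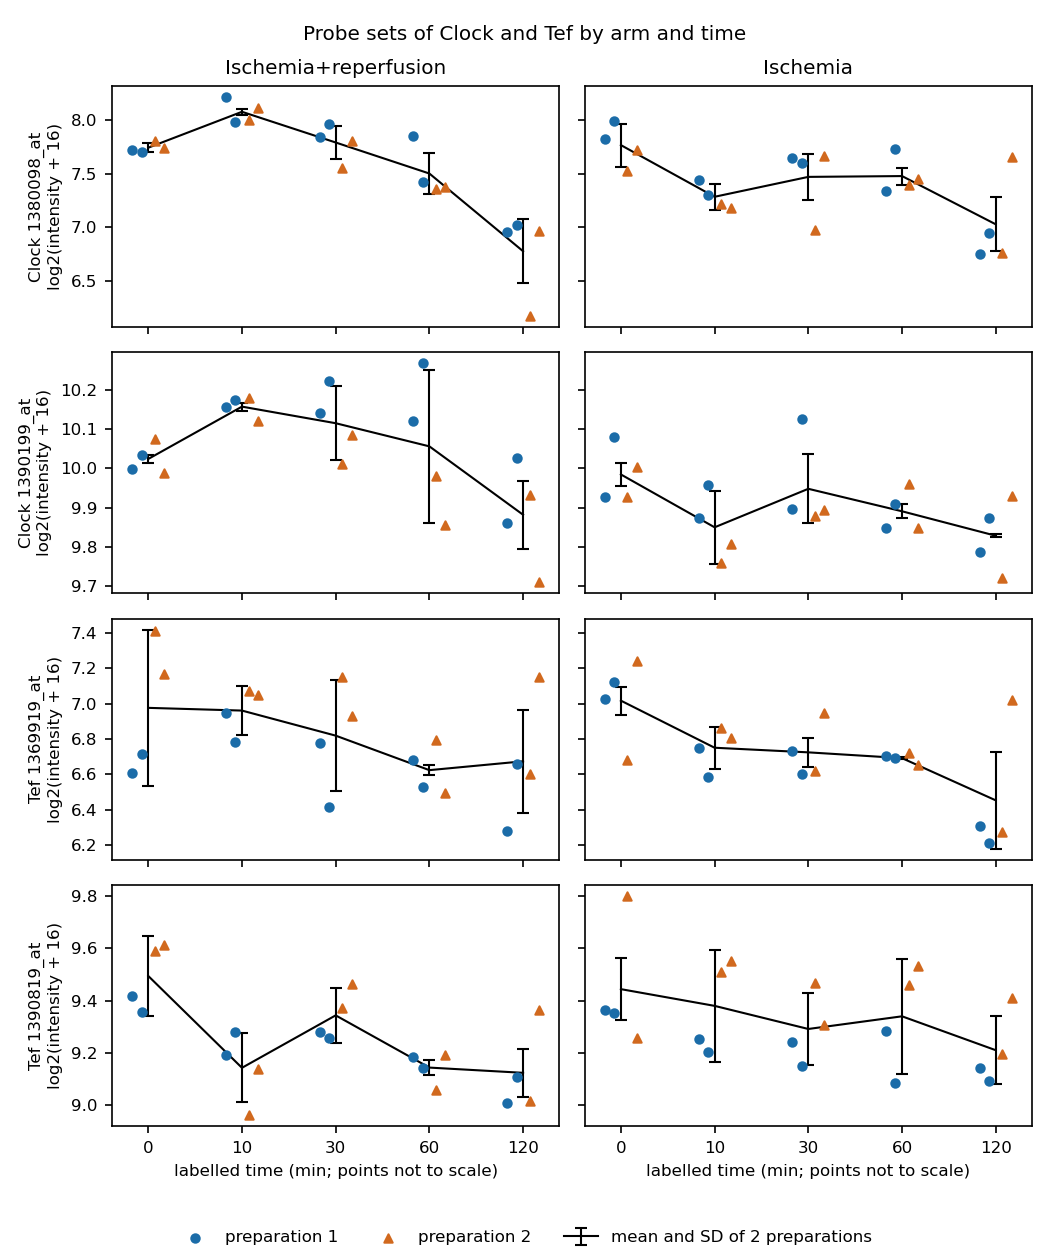
Levels of 2 probe sets of Clock and 2 of Tef, as log2(intensity + 16), against the labelled time for ischemia+reperfusion (left) and ischemia (right); points are arrays by preparation, and lines and bars are the mean and SD of 2 preparations. The Clock probe set 1380098_at ended at means of 6.78 and 7.03, while 1390199_at ended at 9.88 and 9.83, within 0.16 units of its 0 min means.

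Tef, a PAR bZIP factor that binds D-boxes in clock output genes, had 2 tested probe sets. Probe set 1369919_at had levels of 6.31, 6.21, 6.27 and 7.02 at 120 min of ischemia, against 7.02, 7.12, 6.68 and 7.24 at 0 min. The 3 lower arrays lay below every 0 min array, and the fourth was the array set apart. The fall was -0.56 ± 0.15 (95% interval -0.90 to -0.23; adjusted p = 0.036), and -0.78 without the 5 arrays (adjusted p = 0.015). It was not called without the preparation block (adjusted p = 0.11), with no filter on dim probe sets (0.059), with arrays centred on their medians (0.051), or when duplicate 2 of preparation 2 at 0 min (0.15) or duplicate 1 of preparation 2 at 120 min (0.2) was left out. In the ischemia+reperfusion arm its change at 120 min was -0.30 ± 0.15 (adjusted p = 0.26).

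The brighter Tef probe set, 1390819_at, had changes of -0.37 ± 0.11 at 120 min (adjusted p = 0.058) and -0.35 ± 0.11 at 60 min (adjusted p = 0.08) of ischemia+reperfusion. At 10 min of that arm the change was already -0.35 ± 0.11 (adjusted p = 0.22), and at 30 min -0.15 ± 0.11 (adjusted p = 0.58). The 0 min mean of that arm, 9.49, was the highest of its group means. In ischemia the change of 1390819_at at 120 min was -0.23 ± 0.11 (adjusted p = 0.16). Over all times and both arms the changes ran from -0.37 to -0.06 for 1390819_at and from -0.56 to -0.02 for 1369919_at. The third probe set, 1385374_at, lay below the filter with group means of 6.05 to 6.41.

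In the ischemia arm at 120 min, 2 of 13 clock probe sets were called (15.4%), those of Clock and Tef, both lower, against 12.9% of all tested probe sets (6.45% higher and 6.48% lower). The clock genes' share was thus near that of the whole array. The median change of the 13 was -0.14 (-0.74 to 0.37), against 0.00 for all tested.

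**Figure D3:**
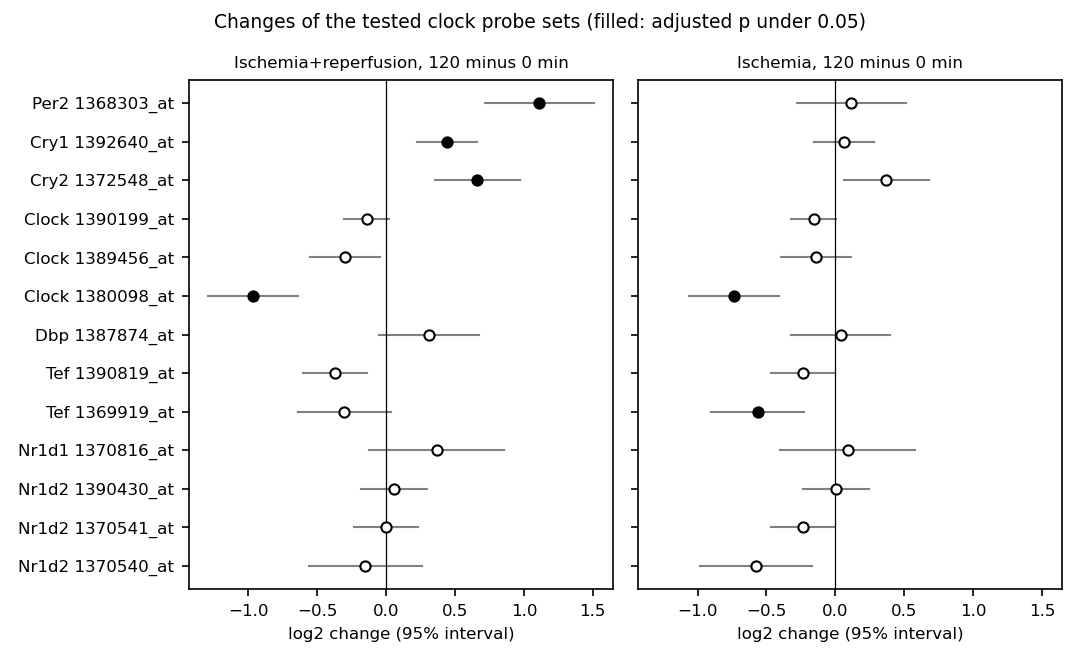
Change at 120 min against 0 min of the 13 tested clock probe sets, in log2 units, for ischemia+reperfusion (left) and ischemia (right); circles are limma estimates, lines their 95% intervals, and filled circles have an adjusted p under 0.05. In ischemia+reperfusion Per2 (1.11), Cry2 (0.66), Cry1 (0.44) and a Clock probe set (-0.97) are filled, and in ischemia the same Clock probe set (-0.74) and a Tef probe set (-0.56).

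Dbp, a PAR bZIP factor and a direct target of CLOCK and BMAL1, was not called in any comparison. Its means were 8.82 ± 0.04, 9.08 ± 0.03, 9.06 ± 0.52, 8.98 ± 0.20 and 9.13 ± 0.31 over the times of ischemia+reperfusion, and 8.98 ± 0.14, 9.46 ± 0.30, 9.36 ± 0.06, 9.34 ± 0.21 and 9.02 ± 0.10 over those of ischemia. In ischemia the change was 0.48 ± 0.16 at 10 min (95% interval 0.12 to 0.84; adjusted p = 0.13) and 0.04 ± 0.16 at 120 min. At 60 min its levels were 8.97, 8.71, 9.08 and 9.17 in ischemia+reperfusion, and 9.21, 9.17, 9.30 and 9.68 in ischemia. The highest array of the first group and the lowest of the second both stood at 9.17 (difference between the arms -0.36 ± 0.16, adjusted p = 0.21).

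Nr1d1, which encodes REV-ERB alpha, was likewise not called. Its 120 min levels of ischemia+reperfusion were 8.16, 8.22, 8.07 and 8.37, against 0 min levels of 7.70, 7.89, 7.91 and 7.85. The change was 0.37 ± 0.22 (95% interval -0.12 to 0.86; adjusted p = 0.35). The ischemia baseline held an array at 9.38, the one set apart, where the other 3 had 8.06, 7.95 and 7.86, and changes of Nr1d1 in ischemia differed in sign between preparations: at 120 min they were -0.33 in preparation 1 and 0.51 in preparation 2. The 4 arrays at 120 min of ischemia had 8.46, 8.32, 8.36 and 8.47. Their change was 0.09 with all arrays, and without the array at 9.38 it was 0.42 and passed (adjusted p = 0.04).

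Nr1d2, which encodes REV-ERB beta, was not called either. For its brightest probe set, 1390430_at, all 8 changes from 0 min lay between -0.09 and 0.06, with 95% intervals that reached no further than -0.33 and 0.30. The second, 1370541_at, had changes of -0.24 to 0.06. The dimmest, 1370540_at, had -0.58 ± 0.19 at 120 min of ischemia (adjusted p = 0.063), where its levels were 6.77, 6.42, 6.39 and 7.14, against 7.15, 7.39, 7.09 and 7.40 at 0 min. This change passed on the deposited scale (-0.75, adjusted p = 0.039), with arrays as samples (adjusted p = 0.042), and when 1 of 3 single arrays was left out: preparation 2 duplicate 1 at 0 min (-0.65), or preparation 1 duplicate 1 (-0.66) or preparation 2 duplicate 2 (-0.76) at 120 min.

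**Figure D4:**
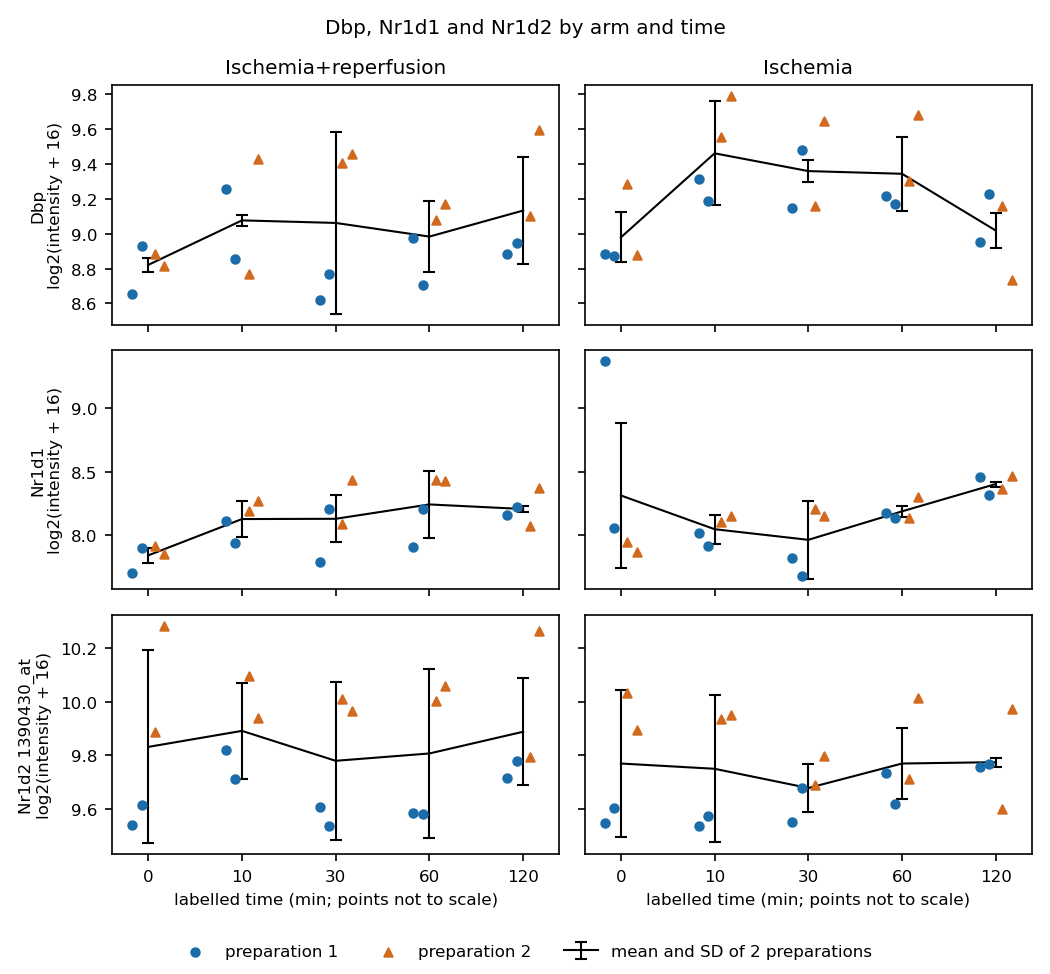
Levels of Dbp, Nr1d1 and Nr1d2 (probe set 1390430_at), as log2(intensity + 16), against the labelled time for ischemia+reperfusion (left) and ischemia (right); points are arrays by preparation, and lines and bars are the mean and SD of 2 preparations. The Nr1d1 array at 9.38 at 0 min of ischemia stands above all others of that gene, and Nr1d2 stays between group means of 9.68 and 9.89.

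At the shorter times only Cry1 at 60 min of ischemia+reperfusion was called. By limma, 0 of 13 were called at 10 and 30 min in either arm, where 1.98% (10 min of ischemia), 0.0966% (30 min of ischemia), 0.0376% (10 min of ischemia+reperfusion) and 0.784% (30 min of ischemia+reperfusion) of all tested probe sets were. At 60 min of ischemia 0 of 13 were called, against 0.129%. At an unadjusted p under 0.05 the counts were 4 (10 min), 1 (30 min) and 4 (60 min) in ischemia+reperfusion, and 2, 3 and 1 in ischemia. The share of all tested probe sets under this unadjusted threshold was not counted, so these counts cannot be set against the shares above.

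Between the arms at equal time, limma called 0 of 13 clock probe sets at 0, 10, 30, 60 and 120 min, where it called 0.333%, 0%, 0.532%, 5.38% and 0% of all tested. The count over all probe sets at 120 min rested on the 2 arrays set apart at that time: it was 0 with them, 669 without both and 103 without that of ischemia+reperfusion alone, with 0 clock probe sets each time. At an unadjusted p under 0.05 the counts were 2, 4, 2, 2 and 0. The interaction of arm and time was called for 0 of 13 at 10, 30, 60 and 120 min, and for 0% of all at each; without those 2 arrays it was called for 123 probe sets at 120 min, again 0 of them of clock genes. At an unadjusted p under 0.05 its counts were 3, 1, 1 and 2, those at 120 min being Per2 and Cry1. For the arm differences and the interactions too, the share of all tested probe sets under the unadjusted threshold was not counted. In the F test over the 4 interaction terms 0 of 13 passed, against 0.00537% of all. The F test over times passed for 3 of 13 in ischemia+reperfusion (3.61% of all) and for 0 of 13 in ischemia (4.57% of all). The rises of Per2, Cry1 and Cry2 with labelled time in one arm are therefore not shown to differ from the changes in the other.

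**Figure D5:**
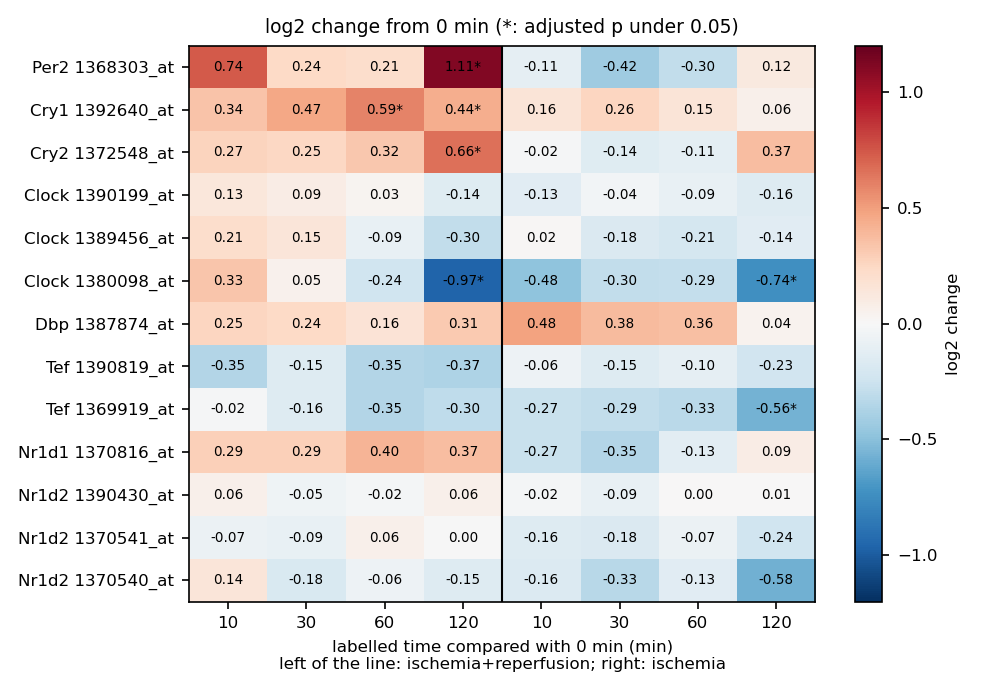
Change from 0 min of each tested clock probe set, in log2 units, at each later time of ischemia+reperfusion (left of the line) and ischemia (right); colour gives the change, and a star an adjusted p under 0.05. Stars stand on Per2, Cry1, Cry2 and Clock 1380098_at in ischemia+reperfusion and on Clock 1380098_at and Tef 1369919_at in ischemia.

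Other genes of the loop came from a list of 21; 17 had a probe set and 15 passed the filter. After 120 min of ischemia+reperfusion 2 rose, 0 fell and 13 did not pass, with a median change of 0.03 (-0.23 to 0.66). Of all tested probe sets 7.17% were called there. Bhlhe40, the E-box repressor DEC1, rose by 0.58 ± 0.15 (adjusted p = 0.042), and Nfil3, a repressor that competes with Dbp and Tef for D-boxes, rose by 0.54 ± 0.14 (adjusted p = 0.042). After 120 min of ischemia 2 rose, 2 fell and 11 did not pass (median 0.08, -0.61 to 0.90), where 12.9% of all were called. Nfil3 rose by 0.90 ± 0.14 (adjusted p = 0.0055) and Bhlhe40 by 0.77 ± 0.15 (adjusted p = 0.012). Prkaa2 and Prkaa1, the catalytic subunits of the kinase AMPK, which marks Cry1 protein for breakdown in the mouse, fell by 0.61 ± 0.10 (adjusted p = 0.0079) and 0.40 ± 0.06 (adjusted p = 0.0063).

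Bmal1 (Arntl), the partner of CLOCK, rose at 60 min of ischemia+reperfusion by 0.41 ± 0.10 (adjusted p = 0.042). Its change at 120 min was 0.33 ± 0.10 there (adjusted p = 0.069) and 0.29 ± 0.10 in ischemia (adjusted p = 0.079). Bhlhe40 rose at 60 min of ischemia+reperfusion too, by 0.67 ± 0.15 (adjusted p = 0.033), and 13 of the 15 did not pass there. The share of all tested probe sets called at that time was 4.69%. Between the arms at 60 min, 2 were higher in ischemia+reperfusion, Bhlhe41 (the repressor DEC2, 0.61 ± 0.14, adjusted p = 0.036) and Prkaa1 (0.28 ± 0.06), and Prkaa2 was lower (-0.40 ± 0.10). The share of all tested probe sets called between the arms at 60 min was 5.38%. In the other comparisons 0 of 15 passed.

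Of 16 genes listed as clock outputs, 12 were tested. In ischemia+reperfusion at 120 min 7.17% of all tested probe sets were called. Of the outputs, 3 rose, 0 fell and 9 missed the threshold (median 0.03, -0.16 to 1.00). They were Pdk4, a kinase that turns off pyruvate oxidation (1.00 ± 0.23, adjusted p = 0.029), Dgat2, an enzyme of triglyceride synthesis (0.70 ± 0.18, adjusted p = 0.042), and Coq10b, a coenzyme Q binding protein (0.38 ± 0.10, adjusted p = 0.046). In ischemia at 120 min 12.9% of all tested probe sets were called. Here 2 outputs rose, 1 fell and 9 missed the threshold (median 0.23, -0.33 to 1.22). The largest of these changes, 1.22, was not called. Pdk4 rose by 0.82 ± 0.23 (adjusted p = 0.039) and Nampt, which makes NAD precursors, by 0.36 ± 0.11 (adjusted p = 0.047), while Tsc22d3, a glucocorticoid target, fell by 0.33 ± 0.10 (adjusted p = 0.048). Nampt also rose at 10 min of ischemia (0.56 ± 0.11, adjusted p = 0.032), and Coq10b at 60 min of ischemia+reperfusion (0.43 ± 0.10, adjusted p = 0.039). Of all tested probe sets 1.98% and 4.69% were called in these comparisons. The largest output change at 10 min of ischemia, 1.68, was not called. Between the arms at 60 min 5.38% of all tested probe sets were called. There Klf15, a metabolic transcription factor, was lower in ischemia+reperfusion (-1.04 ± 0.22, adjusted p = 0.026) and Coq10b higher (0.41 ± 0.10, adjusted p = 0.042). Several of these genes also answer signals other than the clock.

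Markers of other cells moved beside some of these changes. Of all tested probe sets, 12.9% were called at 120 min of ischemia. In ischemia+reperfusion 7.17% were called at 120 min and 4.69% at 60 min. With 120 min of ischemia 3 of 5 tested endothelial markers rose (Pecam1, Esam and Tek, by 1.04, 0.57 and 0.33). The lowest change among the 5 was -0.20 and was not called. Their summed intensity on the array was 2148 to 2876, against 1773 to 2256 at 0 min. Of 8 fibroblast markers 1 rose (Pdgfra, 0.45), with sums of 41192 to 43367, against 34962 to 40385. With 120 min of ischemia+reperfusion 0 of 5 endothelial, 0 of 8 fibroblast and 0 of 4 smooth muscle markers were called, Mrc1 fell among 7 macrophage and leukocyte markers (-0.69, and -0.75 at 60 min, where Cry1 was called), and Myh7 rose among 9 heart muscle markers (0.32). The endothelial sum there was 2197 to 2787, against 1695 to 2306 at 0 min, and the fibroblast sum 40588 to 45189, against 37233 to 46052. The macrophage and leukocyte sum there was 5707 to 7668, against 5631 to 7073, and the median change of the 7 markers was 0.01 (-0.69 to 0.18). With 120 min of ischemia 0 of these 7 were called. Their sum was 6326 to 6978, against 5049 to 6309 at 0 min. Of the markers on the array only Vwf was ever at the floor, on 1 array. The part of these cells in the changes of the clock genes was not tested.

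Genes of like pattern were sought by Pearson's r over the 10 group means, among 10482 genes, as a description: all points share the preparations and the scaling. The 5 genes closest to Per2 were Eif4h, Cep350, Itga1, Tbc1d23 and Bcorl1 (r of 0.89 to 0.93). For Cry1 they were Gprc5b, Dusp26, Tppp, Mras and Mtss1 (0.93 to 0.97), and for Cry2 Srrm2, Plec, Kmt2a, Cd2ap and Col12a1 (0.93 to 0.96). The brightest Clock probe set was closest to Slc25a30, Fam174a, Fut11, Bzw1 and Rnf4 (0.91 to 0.94), and the brightest Tef probe set to Bckdk, Zbtb22, Ttc19, Lgals3bp and Sgk3 (0.90 to 0.96). Among the clock genes themselves, Per2 and Cry2 had r = 0.81 and Cry2 and Nr1d1 0.77, while Per2 and Cry1 had 0.07. Negative values included Cry1 and Tef (-0.65), Cry2 and Tef (-0.62) and Per2 and Clock (-0.50). Per2, Cry1, Cry2 and Nr1d1 were each lowest at 0 min of ischemia+reperfusion, a group that these values share.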

How the data were processed

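Total RNA of 40 samples was labelled with biotin by an Eberwine-type method and hybridized to Affymetrix rat arrays, per the labels' protocols. The deposited values were probe set intensity on a linear scale, 15.8% of them negative. The algorithm that summarised the probes is not given in the sources used here. Genes were named from GEO's platform annotation, only where a probe set had 1 symbol (20826 of 31042; 436 had several, 9780 none). The filter kept 18625 probe sets whose mean level passed the 40th percentile (6.48, or 73.2 as intensity). Duplicates were averaged, and the 20 averages were fitted in 1 limma 3.58.1 model (R 4.3.3) of 10 groups with preparation as a block, with Benjamini-Hochberg adjustment within each comparison. The block rests on the labels. The difference between preparations, compared between groups, had a median correlation of 0.18 (-0.18 to 0.53), and 34 of 45 correlations were over 0.1. No 2 arrays held identical values. The median SE was 0.12, with a 95% half-width of 0.26; the number of arrays limits this precision. The fit was also run on simulated data with independent noise and no arrays set apart. That run does not show how the fit behaves on arrays like these.

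The members and gene lists were chosen with earlier results of these data known. Array values are given for clock probe sets called in a comparison, and for some others, chosen after their values were seen. Of the 2 lists of other clock genes, those called at 120 min are named, and calls at other times were added after their values were seen. The 5 genes of highest r were named for each called clock gene. The alternatives were no block, the deposited scale, arrays centred on their medians, a pseudocount of 64, no filter, arrays as samples, and left-out arrays.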

Additional observations from a re-analysis of the deposited data

Results flagged for a closer look

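In 12 of 130 sets of 4 arrays (13 clock probe sets in 10 groups), an array stood off by a gap over the 95% critical value of Dixon's test. Chance gives about 1 in 20 where the 4 values are independent. These sets hold duplicates of 2 preparations and share the same 40 arrays, so that rate is no benchmark for the 12. In ischemia+reperfusion, Cry2 had arrays at 9.10 (0 min; others 9.39 to 9.43) and 9.25 (10 min; others 9.68 to 9.76), both of preparation 2, duplicate 2. Clock 1380098_at had 7.86 at 60 min (others 7.36 to 7.42) and 6.17 at 120 min (others 6.96 to 7.02), and Nr1d2 1390430_at had 10.26 at 120 min (others 9.72 to 9.79). In ischemia, Nr1d1 had 9.38 at 0 min (others 7.86 to 8.06), and Dbp 9.28 at 0 min (others 8.87 to 8.88). At 30 min Clock 1380098_at had 6.98 (others 7.60 to 7.66) and Clock 1390199_at 10.12 (others 9.88 to 9.90). At 60 min Cry2 had 9.88 (others 9.42 to 9.45) and Nr1d2 1370541_at 9.88 (others 9.51 to 9.57). At 120 min Tef 1369919_at had 7.02 (others 6.21 to 6.31). The Tef array, the Clock array at 6.17 and the Nr1d1 array were 3 of the 5 whose whole profiles stood apart. No cause of these values was tested.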

How the results depend on the processing

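None of the 7 called clock changes reversed its sign under the alternatives run. Of the 175 other clock changes, arm differences and 120 min interactions, 10 turned sign without the 2 arrays set apart at 120 min and 17 without the 5 arrays; with all arrays these were at most 0.27 in size. At 120 min of ischemia the 2 calls became 1 (Clock 1380098_at) without the preparation as a block (no replicate block), with arrays centred on their medians and with no filter; 4, all lower, on the deposited scale, where the median of all probe sets was -0.22; and 4 without the 5 arrays set apart, a choice made after seeing the data. At 120 min of ischemia+reperfusion the 4 calls became 2 (Per2 and Clock 1380098_at) on the deposited scale, where that median was -0.12, and leaving out single arrays gave 4 to 5. At 60 min of that arm the 1 call became 0 on the deposited scale and 2 with arrays as samples. From a main count of 0, 1 was called at 10 min of ischemia and 1 between the arms at 10 min (both Clock 1380098_at) without the 2 arrays set apart at 120 min or without the 5 arrays. Between the arms at 10 min, 2 passed with arrays as samples. At 30 min of ischemia+reperfusion 1 (Cry1) passed with arrays as samples and without those 2 or the 5 arrays, and at 10 min 2 (Per2 and Cry1) without the 5 arrays. Leaving out each array in turn gave 0 to 3 calls at 120 min of ischemia (0 without duplicate 1 of preparation 2 at 120 min), 0 to 1 at 10 and 30 min of ischemia+reperfusion and 0 to 1 between the arms at 0 min. Without the preparation block Per2 (adjusted p = 0.087) and Tef 1369919_at (0.11) were not called, and no other clock call changed. The cause of these shifts was not tested.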
